A study of Mus musculus with 96 samples.

Results

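The vacuolar ATPase, Ragulator and Rag genes form a set of 34 genes chosen by name. The rule uses no measured value, but the set was chosen with earlier results of these data known. They are 15 subunits of the vacuolar ATPase, 2 accessory proteins of that pump, the 5 Ragulator genes, 4 Rag GTPases, Flcn and Fnip1, the transcription factors Tfeb, Tfe3 and Mitf, and Mtor, Rptor and Rheb. All 34 were found among the 40202 genes of the files, and 33 had a count in at least 1 kept cell. A mean of at least 5 CPM, counts scaled to a library total of 1000000, over both groups was reached by 29 of them and by 9374 genes in all.

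C10 is a line from mouse lung, and each library holds the RNA of a single C10 cell; 48 were from untreated cells (control) and 48 from cells given 10 nM RO-3306 for 36 h. RO-3306 is sold as an inhibitor of CDK1, the kinase that drives entry into mitosis. Neither group carries a labelled genotype or transgene, and all share the same line and medium. Lysates went through nanoSPLITS, a method to split 1 lysate for RNA and protein measurement, and the RNA part is described here. The comparison asks how transcripts of these genes differed between treated and untreated cells.

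The pump consists of a V1 part, which hydrolyses ATP in the cytosol, and a V0 part in the membrane, through which protons enter the lysosome and other acid compartments. On the lysosome surface the pump contacts Ragulator, a scaffold that holds the Rag GTPases, and the Rags in turn bind the mTORC1 kinase complex when amino acids are plentiful. TFEB and its relatives are factors phosphorylated by mTORC1, and in their active form they bind E-box elements in the promoters of many lysosomal genes, pump subunits included.

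Because of that known element, the promoters of the members were searched for the E-box core CACGTG, for TCACGTG and for the palindrome TCACGTGA, on both strands. Each longer motif contains the shorter one, so their counts overlap. The RefSeq promoter table (assembly GRCm38.p6, 250 bases before to 50 after the start of a gene) held 28 of the 34 members. CACGTG was present in 10 of the 28 (35.7%) and in 8.09% of the 27025 genes of the table. TCACGTG was present in the same 10 members and in 4.29% of genes, and TCACGTGA in 3 members and in 1.12% of genes. A match describes letters in this window and is not a measured binding site. The stretches around the 14 matches are shown because they let the bases beside the shared core be compared, with CACGTG in capitals and each written along the strand of its gene.
Atp6v0d1 (chr8:105566050-105566079, minus strand): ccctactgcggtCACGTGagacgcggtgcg
Atp6v0e (chr17:26676387-26676416, plus strand): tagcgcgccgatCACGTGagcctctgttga
Atp6v1a (chr16:44139373-44139402, minus strand): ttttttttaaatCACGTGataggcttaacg
Atp6v0b (chr4:117887348-117887377, minus strand): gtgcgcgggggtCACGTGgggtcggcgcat
Atp6v0b (chr4:117887330-117887359, minus strand): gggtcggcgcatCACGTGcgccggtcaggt
Lamtor1 (chr7:101905757-101905786, plus strand): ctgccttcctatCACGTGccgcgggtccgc
Lamtor4 (chr5:138255350-138255379, plus strand): gcagaaagttaaCACGTGaacagcttttca
Lamtor4 (chr5:138255366-138255395, plus strand): tgaacagcttttCACGTGtaaaccaaacca
Rragb (chrX:153139819-153139848, plus strand): gagagcccgggcCACGTGatggcgggtggc
Rragb (chrX:153139910-153139939, plus strand): aaagggtagcggCACGTGacaggccctggg
Rragb (chrX:153139943-153139972, plus strand): acggcaggttccCACGTGatcctggcctgc
Rragc (chr4:123917309-123917338, plus strand): ggtgattccgggCACGTGatagtaccactt
Fnip1 (chr11:54438092-54438121, plus strand): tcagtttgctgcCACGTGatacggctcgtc
Rheb (chr5:24842440-24842469, minus strand): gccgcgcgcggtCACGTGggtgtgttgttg

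The full promoters of 4 members described below as higher in RO-3306 cells are shown to place the core relative to the start of the gene, which follows the first 250 bases. In Atp6v0d1 the core begins 3 bases before the start, and in Atp6v0e at base 4 of the transcribed part. In Lamtor1 and Rragc it lies 68 and 112 bases before the start.
Atp6v0d1 (chr8:105566015-105566314, minus strand): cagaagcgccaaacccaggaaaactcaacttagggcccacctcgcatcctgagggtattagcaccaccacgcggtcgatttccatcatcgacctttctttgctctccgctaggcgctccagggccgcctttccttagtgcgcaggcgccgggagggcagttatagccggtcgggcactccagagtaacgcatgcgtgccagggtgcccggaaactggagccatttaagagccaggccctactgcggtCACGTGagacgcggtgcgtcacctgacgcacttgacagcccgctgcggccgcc
Atp6v0e (chr17:26676146-26676445, plus strand): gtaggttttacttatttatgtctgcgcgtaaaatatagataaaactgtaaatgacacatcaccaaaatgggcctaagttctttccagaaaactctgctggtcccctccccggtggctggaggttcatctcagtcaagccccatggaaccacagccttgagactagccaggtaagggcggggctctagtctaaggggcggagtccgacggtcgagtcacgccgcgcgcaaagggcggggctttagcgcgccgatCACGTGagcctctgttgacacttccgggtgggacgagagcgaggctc
Lamtor1 (chr7:101905587-101905886, plus strand): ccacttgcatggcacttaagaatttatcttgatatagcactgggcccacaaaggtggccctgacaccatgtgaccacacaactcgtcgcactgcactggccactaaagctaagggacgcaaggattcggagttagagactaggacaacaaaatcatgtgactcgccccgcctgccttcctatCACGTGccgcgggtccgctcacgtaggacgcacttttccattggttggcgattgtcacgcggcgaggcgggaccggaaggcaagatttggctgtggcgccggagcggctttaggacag
Rragc (chr4:123917183-123917482, plus strand): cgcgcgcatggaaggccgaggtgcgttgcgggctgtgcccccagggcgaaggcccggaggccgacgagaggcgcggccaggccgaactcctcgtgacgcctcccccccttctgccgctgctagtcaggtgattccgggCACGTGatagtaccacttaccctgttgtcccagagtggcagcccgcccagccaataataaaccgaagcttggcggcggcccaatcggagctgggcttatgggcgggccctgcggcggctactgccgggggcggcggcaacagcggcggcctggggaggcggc

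A minimum of 50000 counts and 1000 genes per cell left 29 control and 37 RO-3306 cells with 59979 to 6457215 and 295005 to 5321880 counts. The labels name no separate cultures, so each group counts as 1 sample, no difference has a replicate check and no p-value is given. For each group the counts of its kept cells were added up, and log2 ratios are of RO-3306 CPM against control CPM, each with 1 CPM added, which understates the change of low genes. The titles carry letters A to D, of unstated meaning, and a gene was called higher or lower when it differed at least 1.5-fold with the same sign in all 4 lettered sets. These sets are not replicates. Intervals are exact at the 95% level. Those of CPM and ratios cover counting error of reads only. Reads without molecular identifiers include PCR copies, so these intervals are too narrow for counts of molecules. Intervals for shares of cells treat the cells of a group as independent, although each group counts as 1 sample. The label calls C10 cells alveolar type II epithelial, and the 9 markers of that type summed to 23.2 CPM (control) and 24.1 CPM (RO-3306). Most of that came from Lpcat1, at 13.5 and 18.7 CPM, and Abca3, at 9.38 and 5.21 CPM, while Sftpa1, Sftpc, Sftpd, Slc34a2 and Napsa were at 0 in every kept cell. The summed level of the 6 epithelial markers was 1.78 CPM (control) and 0.978 CPM (RO-3306), with Krt18 and Cldn4 at 0. The summed level of the 6 mesenchymal markers was 3551 to 5869 CPM over the control sets and 1269 to 2322 CPM over the RO-3306 sets, and 3 of the 5 tested (Col1a1, Col3a1 and Vim) were called lower. The 8 macrophage markers summed to 58.5 and 61.2 CPM, with Marco at 0. Of the 2 tested, Cd14 was called higher at 26.4 and 45.3 CPM, and Lyz2 was not called, at 29.5 and 15.8 CPM. The 6 osteoclast markers summed to 0.0492 and 0.0234 CPM. Their part in the results below was not tested.

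Members of this set were mostly higher in RO-3306 cells. Of the 29 members tested, 14 were called higher, against 10.6% of all 9374 genes tested, and 1, Rptor, was called lower, against 8.51% of all genes. A log2 ratio above 0 was found for 22 of the 29, against 41% of all genes. The median log2 ratio of the 29 was 0.71 (quartiles 0.17 and 1.23), and that of all genes -0.22 (quartiles -0.98 and 0.43). In sets A, B, C and D the members' medians were 0.90, 0.71, 0.95 and 0.79, and those of all genes -0.08, -0.26, 0.41 and 0.24. Among genes of at least 50 CPM, 12 of 18 members were called higher, against 12.3% of all 3702 such genes. For 12 members the lowest of the 4 RO-3306 sets lay above the highest of the 4 control sets, which held for 6.84% of all genes tested. None had its highest RO-3306 set below its lowest control set, against 5.01%.

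**Figure D1:**
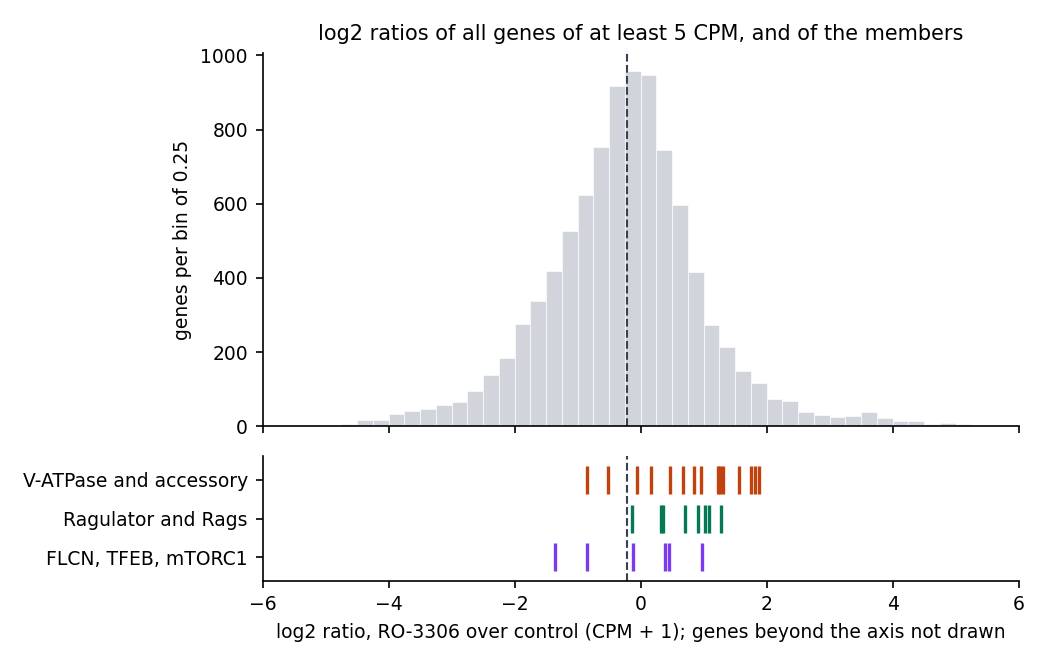
Upper panel, number of genes (y) by log2 ratio of RO-3306 over control (x) for the 9374 genes of at least 5 CPM, in bins of 0.25, with a dashed line at the median of -0.22. Lower panel, 1 line for each of the 29 members tested, by part of the pathway: most pump, Ragulator and Rag members lie right of the dashed line, while the others lie on both sides.

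The scaling sets where all genes are centred. TMM factors shift log2 ratios by 0.21 and DESeq2 size factors by 0.24, toward higher values in RO-3306. Each adds 1 member, Rheb, to those called higher, while the share of all genes called higher rises from 10.6% to 14.1% and 14.6%. Members have short transcripts for this data set, with a median of 2071 nt against 2578 nt for all genes tested. When the median ratio of genes of like mRNA length was subtracted, 9 members stayed called, against 9.74% of all genes; Lamtor1, Lamtor3, Lamtor4, Rragb and Rragc lost the call higher and Rptor the call lower. The members' median was then 0.66 and 27 of 29 were above 0, and the log2 ratios of Rragb and Rragc were 1.38 and 1.56, larger than without the correction.

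**Figure D2:**
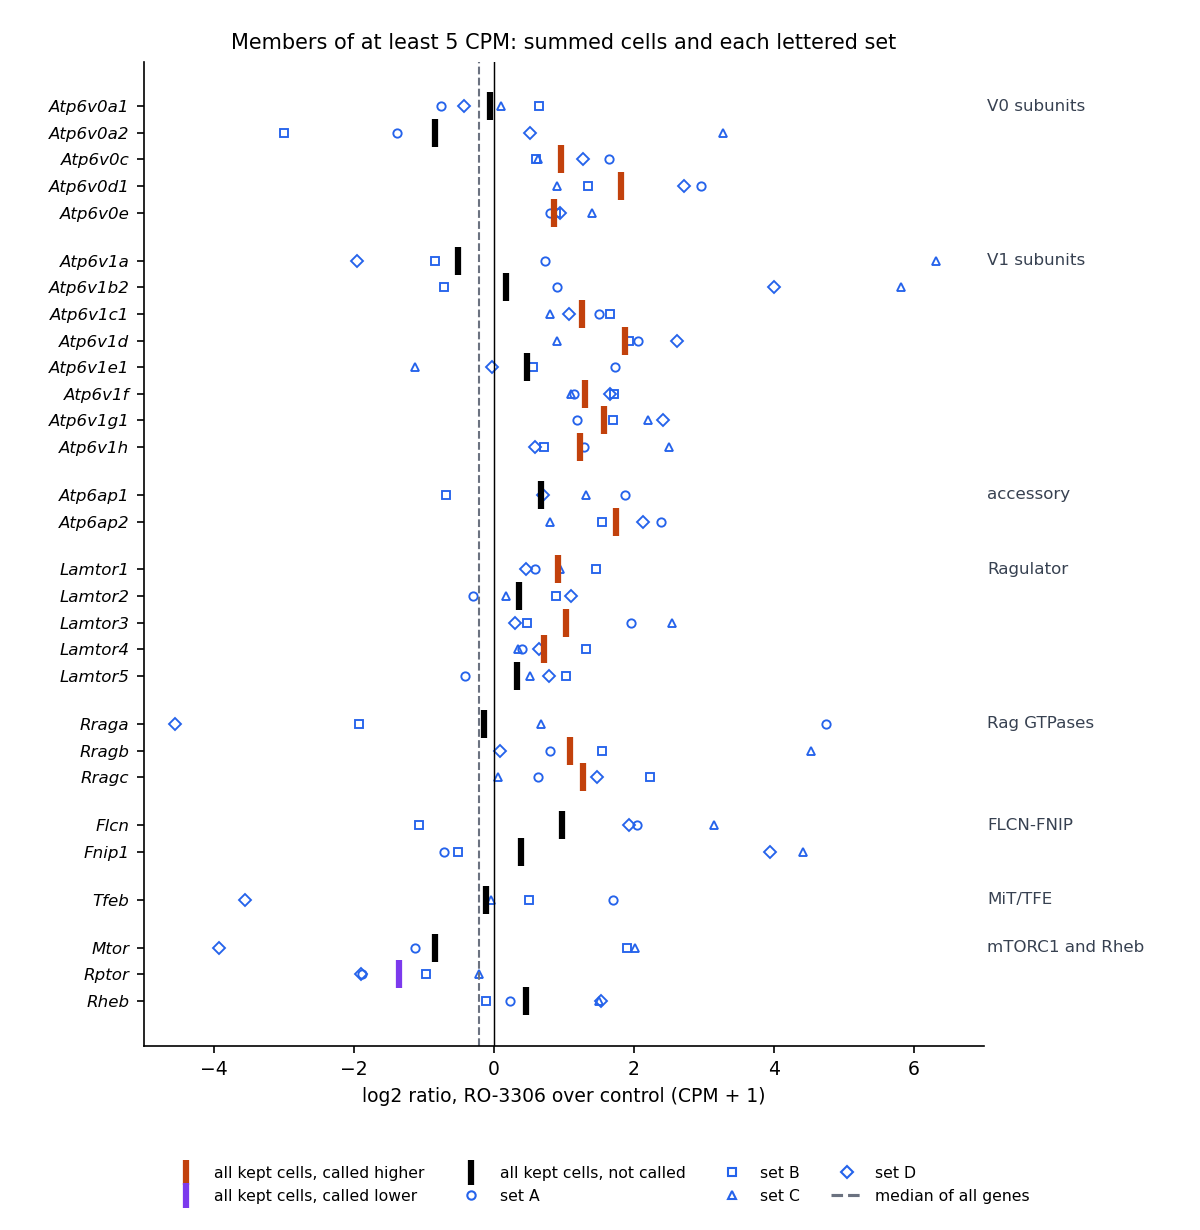
Log2 ratio of RO-3306 over control (x) for the 29 members tested (y, grouped by role): the thick mark is the ratio of all kept cells, coloured where called, and the open symbols are the 4 lettered sets, with the median of all genes dashed. Subunits such as Atp6v1f and Atp6v0e have their 4 sets close together, whereas the sets of Rraga, Tfeb and Mtor fall on both sides of 0.

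Summed over its 15 subunits, the vacuolar ATPase stood at 2192 CPM in control cells (2180 to 2203) and 4875 CPM in RO-3306 cells (4861 to 4889), a ratio of 2.22 (2.21 to 2.24). The sums of the 4 sets were 2093 to 2295 CPM in control, against 4593 to 5153 CPM in RO-3306. To compare single cells, the counts of each were rounded to whole numbers and thinned at random to 639000 reads. This left out 4 shallower control and 3 RO-3306 cells. At that depth the lowest, median and highest control cell had 989, 2127 and 3085 CPM of pump transcripts, and the RO-3306 cells 2527, 5057 and 7416 CPM. At that depth the groups overlapped at the edge: 32 of 34 RO-3306 cells lay above the highest control cell, and no control cell reached the RO-3306 median. The overlap was wider over all kept cells at full depth, with 945 to 3632 CPM in control and 1510 to 7242 CPM in RO-3306. Without Atp6v0c and Atp6v1g1, whose reads were often shared with other sites, the log2 ratio of the sum was 0.97 in place of 1.15. Genes detected per cell at equal depth also differed, with medians of 4589 in control and 5951 in RO-3306 cells. Across these cells the Spearman rho of genes detected with summed pump transcripts was 0.44 in control and -0.08 in RO-3306 cells.

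**Figure D3:**
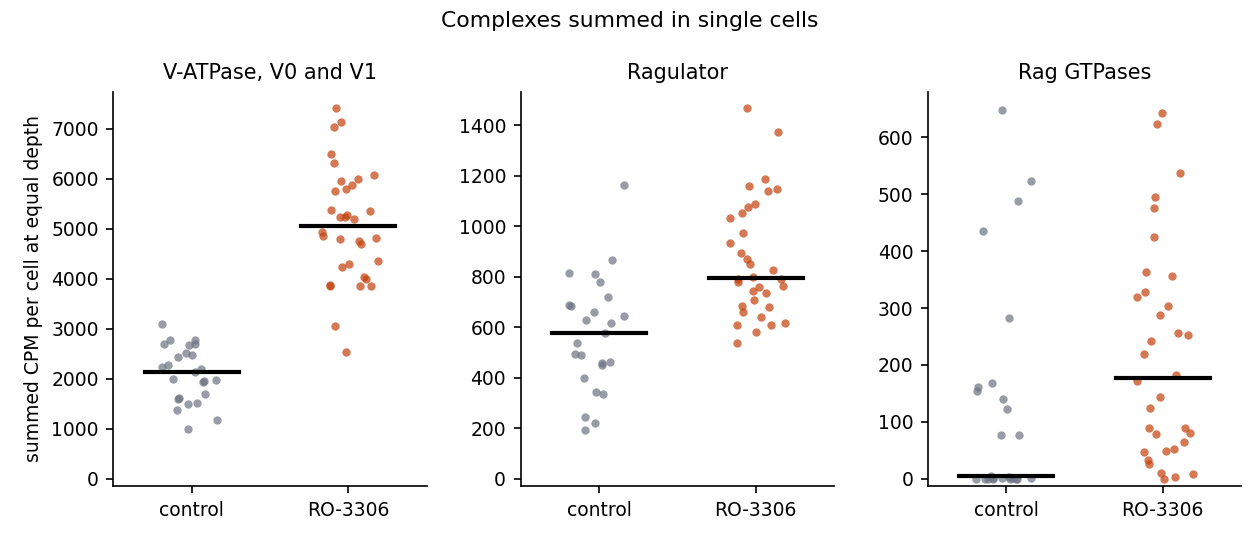
Summed CPM per cell after thinning to equal depth (y), 1 point per cell, for 25 control and 34 RO-3306 cells (x), with black bars at the medians. Pump sums of RO-3306 cells lie almost wholly above those of control cells, Ragulator sums overlap more, and many control cells have no or nearly no Rag counts.

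Of the V0 subunits, which form the proton channel, Atp6v0c, Atp6v0d1 and Atp6v0e were called higher, and summed V0 counts were 1.82 times the control level (1.80 to 1.84). Atp6v0c (chromosome 17, 24382839 to 24388652 on GRCm39) encodes the proteolipid of the rotating ring. Its level was 304 CPM (299.6 to 308) in control and 589.9 CPM (585 to 595) in RO-3306, with 206 to 401 CPM over the control sets and 502 to 654 CPM over the RO-3306 sets. The lowest, median and highest cell at equal depth had 26.6, 279 and 604 CPM in control, against 277, 625 and 1027 CPM in RO-3306. The cells overlapped, with 19 of 34 RO-3306 cells above the highest control cell. Its counts were fractional in 75.8% of the cells with any, so part of its reads also fitted other sites.

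Atp6v0d1 (chromosome 8, 106251093 to 106292696), the d subunit that joins the ring to the central stalk, had a lower level but the largest log2 ratio of the V0 subunits, 1.81. It was at 10.1 CPM (9.32 to 10.9) in control and 37.9 CPM (36.7 to 39.2) in RO-3306. Control sets ran from 5.12 to 16.7 CPM and RO-3306 sets from 32 to 47.7 CPM. At equal depth it was detected in 11 of 25 control cells (44%, interval 24.4% to 65.1%) and in 31 of 34 RO-3306 cells (91.2%, 76.3% to 98.1%). Single cells still overlapped, since the highest control cell had 174 CPM and the highest RO-3306 cell 109.6 CPM. Control cell B4 held 31.7% of the control counts, and without it the log2 ratio was 2.17. Atp6v0d1 lost its call over thinned cells, with a log2 ratio of 1.27.

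Atp6v0e (chromosome 17, 26895370 to 26918621), a small V0 subunit, stood at 237 CPM (233 to 240.5) in control and 429 CPM (424 to 433) in RO-3306. Its control sets spanned 159 to 261 CPM and its RO-3306 sets 383 to 459 CPM. Every cell at equal depth had a count, with a lowest, median and highest value of 81.4, 188 and 599 CPM in control, against 186, 438 and 1019 CPM in RO-3306. Only 5 of 34 RO-3306 cells exceeded the highest control cell, although 33 exceeded the control median.

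The a subunits, which carry the proton path and differ in where they place the pump, were not called. Atp6v0a1 was at 8.44 and 8.07 CPM in control and RO-3306 cells. Atp6v0a2 was at 38.4 and 20.9 CPM, with sets on both sides of 0. Atp6v0e2 had at most 0.0644 CPM in either group. Atp6v0b, another ring proteolipid, had no count in any kept cell, but its span lies wholly within that of the noncoding gene Gm12841. By the counter's defaults a read over both genes is assigned to neither, so this 0 says nothing about its transcript.

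Of the 8 V1 subunits, which make up the ATP-hydrolysing head and its stalks, 5 were called higher and none lower. Summed V1 counts were 1594 CPM (1584 to 1604) in control and 3789 CPM (3777 to 3802) in RO-3306 cells, a ratio of 2.38 (2.36 to 2.39). The called subunits belong to the central rotor (Atp6v1d, Atp6v1f), a peripheral stalk (Atp6v1g1) and its connection and regulation (Atp6v1c1, Atp6v1h). The nucleotide-binding subunits of the head, Atp6v1a and Atp6v1b2, were not called.

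Atp6v1d (chromosome 12, 78889756 to 78908810), the rotor shaft, had a log2 ratio of 1.87, the largest of the members over all kept cells. Over thinned cells Atp6ap2 was above it, at 2.28 against 1.78. Atp6ap2 was also above it over cells of at least 500000 counts and 3000 genes and without control cell B4. Without that cell Atp6v0d1 was above it too. With 0.1 CPM added in place of 1, Atp6v0d1 was above it, at 1.90 against 1.88, and without set B at 2.20 against 1.87. Without set A, Rragb, at 2.59, and Atp6v1g1, at 1.79, were above it, at 1.74. Atp6v1d was at 99.0 CPM (96.6 to 101) in control and 366 CPM (362 to 369) in RO-3306. Its sets ran from 64.2 to 179.6 CPM and from 336 to 399 CPM. The lowest, median and highest cell at equal depth had 0, 29.7 and 484 CPM in control, against 0, 378 and 984 CPM in RO-3306. Thus 31 of 34 RO-3306 cells were above the control median, but both groups held cells without a count.

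Atp6v1f (chromosome 6, 29467782 to 29470508), the other rotor subunit, was at 249.9 CPM (246 to 254) and 618 CPM (613 to 623), a log2 ratio of 1.30. Its sets ran from 165 to 318 CPM in control and from 524 to 701 CPM in RO-3306. At equal depth the control cells had 0, 225 and 527 CPM (lowest, median, highest) and the RO-3306 cells 321, 636 and 1329 CPM. Here 20 of 25 control cells lay below every RO-3306 cell.

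Atp6v1g1 (chromosome 4, 63463002 to 63468938), a peripheral stalk subunit, was the member with the highest level per kb of mRNA in both groups, 514 and 1523.5 CPM per kb. Its level was 584 CPM (578 to 589) in control and 1729 CPM (1721 to 1738) in RO-3306, with sets of 310.5 to 708 CPM and 1608 to 1983 CPM. At equal depth the highest control cell had 1011 CPM and the lowest RO-3306 cell 955 CPM, and 33 of 34 RO-3306 cells exceeded every control cell. Over all kept cells, Atp6v1g1 had a count in 26 of 29 control and 36 of 37 RO-3306 cells. Its counts were fractional in 83.9% of cells with any, and 43.2% of its span lies within Gm38592. Its share of all pump counts was 26.6% in control and 35.5% in RO-3306 cells.

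Atp6v1c1 (chromosome 15, 38662096 to 38692688), a stator subunit that holds V1 to V0, was at 172 CPM (169 to 175) and 413 CPM (408 to 417), a log2 ratio of 1.26. Sets spanned 139.7 to 210.2 CPM in control, against 288 to 555 CPM in RO-3306. It was detected at equal depth in 15 of 25 control and 33 of 34 RO-3306 cells, with medians of 167 and 424 CPM and highest cells of 560.2 and 1030 CPM.

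Atp6v1h (chromosome 1, 5153201 to 5233438), which silences V1 that has come off the membrane, was at 81.6 CPM (79.4 to 83.8) and 193 CPM (190.4 to 196), a log2 ratio of 1.23. Its sets ran from 41.2 to 129.6 CPM and from 146 to 238 CPM. Cells at equal depth had 0, 0 and 516 CPM (lowest, median, highest) in control and 0, 154 and 596 CPM in RO-3306, and counts were present in 12 of 25 and 30 of 34. Its call depends on single cells: without RO-3306 cell B4 or control cell D9 the log2 ratio was 1.13 or 1.20, but the value of that cell's set was -0.05 or -0.02.

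Atp6v1a, the catalytic subunit, was at 125 CPM (122 to 128) in control and 87.6 CPM (85.7 to 89.5) in RO-3306 cells, while its sets differed in sign. Control set C held 0.0312 CPM and control set D 325 CPM. More RO-3306 cells had a count at equal depth, 26 of 34 against 13 of 25, with medians of 51.6 and 1.56 CPM. With every cell given the same weight the log2 ratio was 0.89 in place of -0.51, and RO-3306 cell B3, in which over 20% of counts were mitochondrial, had 3505 CPM. Its partner Atp6v1b2 was at 34.9 and 39.3 CPM, with a count at equal depth in 6 of 25 and 20 of 34 cells. Control cell B4 held 45.8% of the control counts of Atp6v1b2. Without that cell its log2 ratio was 0.88 and, with set B at only 0.0069, it would be called higher. Part of its span, 26.3%, lies within Slc18a1. Atp6v1e1, a peripheral stalk subunit, was at 248 and 344 CPM and had sets of both signs.

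**Figure D4:**
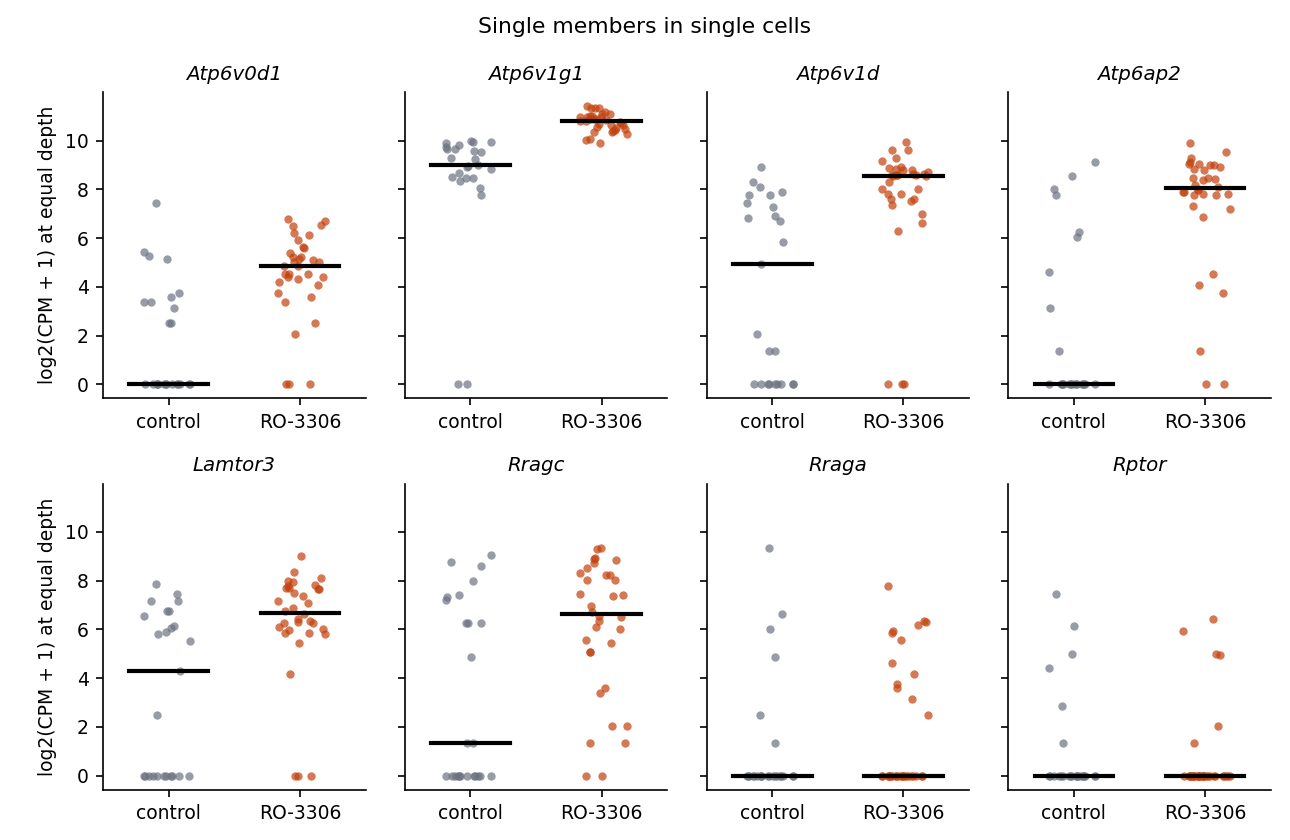
Log2 of CPM plus 1 at equal depth (y) for 8 members in 25 control and 34 RO-3306 cells (x), 1 point per cell, with black bars at the medians. Cells of the 2 groups barely overlap for Atp6v1g1, and for Atp6v0d1, Atp6v1d, Atp6ap2, Lamtor3 and Rragc fewer RO-3306 cells lack a count, while the medians of Rraga and Rptor are 0 in both groups.

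Of the accessory proteins, Atp6ap2 was called higher and Atp6ap1 was not. Atp6ap2 (chromosome X, 12453998 to 12483290), also known as the prorenin receptor and needed for pump assembly, was at 99.8 CPM (97.4 to 102) and 338 CPM (334 to 342), a log2 ratio of 1.75. Its sets ran from 68.6 to 209 CPM and from 286 to 402 CPM. A count was present at equal depth in 9 of 25 control cells (36%, interval 18% to 57.5%) and 32 of 34 RO-3306 cells (94.1%, 80.3% to 99.3%). In control the lowest and median cell had none and the highest had 562 CPM, and in RO-3306 the values were 0, 263 and 945 CPM. When each cell weighed the same the log2 ratio was 1.02 and the set signs were mixed, so the call was lost; control cell C3, of 604699 counts, had 2777 CPM. Atp6ap1 was at 100.5 CPM (98.1 to 103) and 160.2 CPM (158 to 163), with set B in the other direction, at 138 CPM in control, against 85.3 CPM in RO-3306.

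Per kb of mRNA, members of the pump were far from equal in level. Atp6v1g1, Atp6v1f, Atp6v0c and Atp6v0e held between 307 and 514 CPM per kb in control cells and between 555 and 1523.5 CPM per kb in RO-3306 cells. Atp6v1a and Atp6v1d held 30.7 and 27 CPM per kb in control, and 21.5 and 99.7 CPM per kb in RO-3306 cells. Atp6v0d1 and the a subunits Atp6v0a1 and Atp6v0a2 were lowest of the pump members tested in control cells, at 6.18, 2.17 and 7.19 CPM per kb, and Atp6v0d1 was at 23.3 CPM per kb in RO-3306 cells. The order is a description of these libraries, as several neighbours in it differ by less than the spread between their sets.

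**Figure D5:**
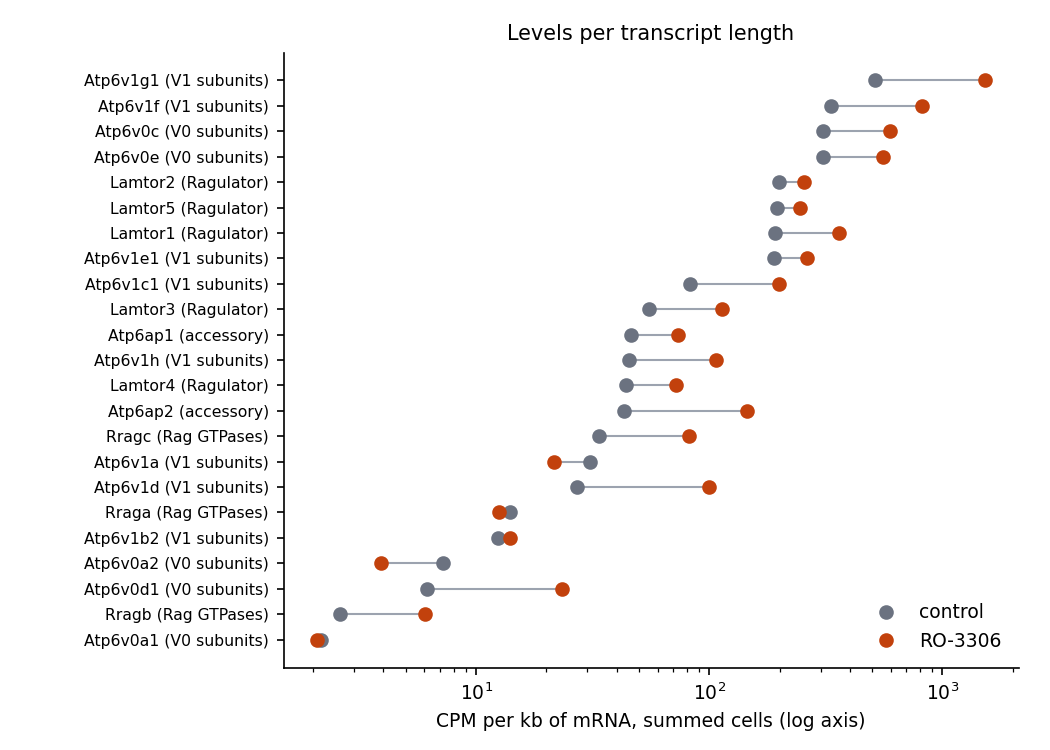
CPM per kb of mRNA on a log axis (x) for pump, accessory, Ragulator and Rag members tested (y, ordered by the control level), from summed control (grey) and RO-3306 (orange) cells, with a line joining the pair. Orange points lie right of grey ones except for Atp6v1a, Rraga, Atp6v0a2 and Atp6v0a1.

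Ragulator, the scaffold that ties the Rags to the lysosome, stood at 546 CPM (540.2 to 552) in control and 856 CPM (850.3 to 862) in RO-3306 cells, a ratio of 1.57 (1.55 to 1.59). The control sets held 462 to 656 CPM and the RO-3306 sets 763 to 994 CPM. At equal depth the lowest, median and highest cell had 191, 579 and 1164 CPM in control, against 538, 796 and 1469 CPM in RO-3306. These ranges overlapped widely, with 3 of 34 RO-3306 cells above the highest control cell and 33 above the control median. Lamtor1, Lamtor3 and Lamtor4 were called higher, and Lamtor2 and Lamtor5 were not.

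Lamtor1 (chromosome 7, 101555044 to 101561110), the lipid-anchored member that wraps the others, was at 170.1 CPM (167 to 173) and 321 CPM (318 to 325), a log2 ratio of 0.91. Its sets ran from 150.3 to 216 CPM and from 273 to 414 CPM. Cells at equal depth had 0, 147 and 617 CPM (lowest, median, highest) in control and 0, 303 and 897 CPM in RO-3306. The ranges overlap, and 31 of 34 RO-3306 cells were above the control median.

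Lamtor3 (chromosome 3, 137624316 to 137634523), also known as the MEK partner MP1, was at 55.9 CPM (54.1 to 57.7) and 115 CPM (113 to 117), a log2 ratio of 1.02. Control sets differed among themselves, from 19.5 to 84.4 CPM, and RO-3306 sets held 102 to 119.8 CPM. Detection at equal depth was 14 of 25 control and 31 of 34 RO-3306 cells, with medians of 18.8 and 102.5 CPM and highest cells of 232 and 513 CPM. Without RO-3306 cell D7 the log2 ratio was 0.94, but set D turned to -0.29 and the call was lost. Counts were fractional in 61.2% of cells with any.

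Lamtor4 (chromosome 5, 138253744 to 138257657), part of the Ragulator core, was at 38.4 CPM (36.9 to 39.9) and 63.4 CPM (61.7 to 65.0), a log2 ratio of 0.71. Its sets ran from 27.4 to 46.5 CPM and from 59.0 to 70.0 CPM. At equal depth 22 of 25 control cells had a count, with a median of 34.4 and a highest value of 119 CPM. All 34 RO-3306 cells had one, from 3.13 over a median of 59.5 to 155 CPM. The call of Lamtor4 was lost over thinned cells and without set B, with log2 ratios of 0.56 and 0.42. Lamtor2 was at 124 and 158 CPM and Lamtor5 at 158 and 199 CPM. In both, set A had the higher value in control, while the other sets had it in RO-3306. With set A left out, Lamtor2 and Lamtor5 would be called higher too, and 14.9% of all genes were then called higher.

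The Rag GTPases work as pairs of RagA or RagB with RagC or RagD. Their summed level was 116 CPM (113 to 118) in control and 246 CPM (243 to 249) in RO-3306 cells, a ratio of 2.12 (2.07 to 2.18). Control sets ran from 79.7 to 244 CPM and RO-3306 sets from 159.9 to 321 CPM, so they overlapped. At equal depth the control cells had 0, 4.69 and 648 CPM (lowest, median, highest) and the RO-3306 cells 0, 178 and 643 CPM. No RO-3306 cell exceeded the highest control cell.

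Rragc (chromosome 4, 123811226 to 123830790), which encodes RagC, made up most of that sum, at 87.3 CPM (85.0 to 89.6) and 212 CPM (209 to 215), a log2 ratio of 1.27. A count was found at equal depth in 13 of 25 control cells (52%, interval 31.3% to 72.2%) and 32 of 34 RO-3306 cells (94.1%, 80.3% to 99.3%), with medians of 1.56 and 98.6 CPM and highest cells of 524 and 643 CPM. Its sets A, B, C and D were at 99.8, 66.1, 95 and 111 CPM in control, against 156, 312, 99.2 and 310.3 CPM in RO-3306. Set C thus barely differed, with a log2 ratio of 0.06. That ratio went below 0, to between -0.77 and -0.05, when control cell C1, C2, C3 or C8 or RO-3306 cell C5 was left out. The call was then lost, although the ratio of all cells stayed between 1.23 and 1.26. With cells weighted equally or thinned the call was lost as well, at a log2 ratio of 0.96 in both. Over cells of at least 500000 counts and 3000 genes it was lost too, at 1.27.

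Rragb (chromosome X, 151920640 to 151973188), which encodes RagB, was at 5.91 CPM (5.33 to 6.52) and 13.7 CPM (12.9 to 14.5) and came from few cells. At equal depth it had a count in 2 of 25 control and 7 of 34 RO-3306 cells. Sets A, B, C and D were at 14.1, 1.59, 0 and 0 CPM in control, against 25.2, 6.55, 22.2 and 0.0567 CPM in RO-3306, so the groups overlapped. Control cell A5 held 89.5% of the control counts, and without it the log2 ratio was 3.15. Without RO-3306 cell C8, which held 52.5% of the counts, the log2 ratio was 0.17 in place of 1.09, and without RO-3306 cell A5 set A turned to -0.49; the call was lost either way. Rraga, the RagA gene, was at 22.5 CPM (21.4 to 23.7) and 20.3 CPM (19.4 to 21.3), and its sets ranged from -4.56 to 4.74 in log2 ratio. Control cell D7 held 60.2% of its control counts, and without it the log2 ratio was 1.07 in place of -0.14. Rragd had at most 0.114 CPM in either group.

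Flcn and Fnip1 encode the complex that acts on RagC and RagD as a GTPase-activating protein. Neither was called, and 21.9% of the span of Flcn and 29.4% of that of Fnip1 lie within other genes. Flcn was at 21.5 CPM (20.3 to 22.6) and 43 CPM (41.7 to 44.4), with set B in the other direction, at 30.7 and 14.1 CPM. It was detected at equal depth in 5 of 25 control cells (20%, interval 6.83% to 40.7%) and 22 of 34 RO-3306 cells (64.7%, 46.5% to 80.3%). Control cell B4 held 54.4% of the control counts of Flcn, and without it the log2 ratio was 1.89 in place of 0.97 and Flcn would be called higher. The same cell held 68.6% of those of Fnip1, which was at 13.1 and 17.4 CPM and was detected at equal depth in 3 of 25 and 13 of 34 cells.

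The transcription factors of the set had low levels. Tfeb was at 14.2 CPM (13.3 to 15.1) and 13 CPM (12.3 to 13.8), with a count at equal depth in 8 of 25 and 12 of 34 cells. Tfe3, at 1.14 and 3.43 CPM, and Mitf, at 1.53 and 2.78 CPM, were under the 5 CPM limit and had counts in at most 6 cells of a group. Transcript levels do not show how much of these proteins is in the nucleus.

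Of the mTORC1 genes, Rptor was called lower and Mtor and Rheb were not called. Rptor (chromosome 11, 119493731 to 119790417) encodes Raptor, the subunit that binds the Rags, and was at 15.3 CPM (14.4 to 16.3) and 5.397 CPM (4.93 to 5.89). Sets A, B, C and D were at 10.7, 11.8, 0.236 and 59.6 CPM in control, against 2.16, 5.47, 0.0654 and 15.3 CPM in RO-3306. Counts at equal depth came from 6 of 25 control and 6 of 34 RO-3306 cells, with highest values of 175 and 84.5 CPM. Control cell D8 held 43.6% of the control counts, and without it the log2 ratio was -0.64 in place of -1.35 and set D turned to 3.73. The call was lost as well without control cell A5, B4 or C8, with a log2 ratio of -1.02, -1.15 or -1.39 and a set value above 0.

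Mtor, the kinase, was at 27.4 CPM (26.1 to 28.7) and 14.8 CPM (14 to 15.6), with sets of both signs. It was found at equal depth in 5 of 25 control and 15 of 34 RO-3306 cells. Control cell D10, with 59979 counts in all, had 7066 CPM of Mtor, and when each cell weighed the same the log2 ratio was -3.74. Rheb, the small GTPase that activates mTORC1, was expressed in nearly every cell, at 561 CPM (555 to 567) and 769 CPM (763 to 774). Its cells at equal depth had 0, 515 and 1285 CPM (lowest, median, highest) in control and 264, 752 and 1209.7 CPM in RO-3306. Set B was at 754 and 699 CPM, against the direction of the other sets, so it was not called. It was called with TMM or DESeq2 scaling.

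Other genes of the pathway were taken from lists written with earlier results known, and their counts of calls stand against the 10.6% called higher and 8.51% called lower of all genes tested. Of 8 pump isoforms known from kidney, bone, brain or other tissues, 2 were tested and none called, and Atp6v1b1, Atp6v1e2 and Atp6v1g3 were at 0. Of the 11 genes for pump assembly and the RAVE complex, 9 were tested and 2 called higher. These were Rnasek, a pump-associated membrane protein, at 117 and 222 CPM, and Ncoa7, whose product binds the pump, at 2.01 and 21.1 CPM; control cell B4 held 74.9% of the control counts of Ncoa7. Tmem9 was at 0, but its span lies wholly within that of Igfn1, so this 0 says nothing about its transcript. None of the 7 tested of 12 genes of GATOR1, GATOR2 and KICSTOR, complexes that relay amino acid levels to the Rags, was called, and their median log2 ratio was -0.30. Of those 12, 11 were matched by name.

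Among 12 amino acid sensors and lysosomal transporters, 11 were tested, 1 was called higher and 1 lower, with a median log2 ratio of -1.51. Castor1, an arginine sensor that restrains mTORC1, had 1 count in 1 of 29 control cells and 14.9 CPM in RO-3306, from 15 of 37 cells. Slc7a5, the light chain of a leucine transporter, was at 52.5 and 14.5 CPM, and its sets had log2 ratios from -2.17 to -1.88. Of 16 other FLCN, MiT/TFE and mTORC1 genes, 12 were tested, 2 called higher and 1 lower. Called higher were Eif4ebp1, at 704 and 1067 CPM, and Eif4ebp2, at 0.999 and 12.3 CPM. Eif4ebp2, like Ncoa7 and Castor1, reached the 5 CPM mean only through RO-3306 cells. It had counts in 4 of 29 control and 8 of 37 RO-3306 cells. Its sets A and D were at 0.242 and 0 CPM in control, against 0.342 and 0.0454 CPM in RO-3306. Called lower was Tbc1d7, a TSC complex subunit, at 60.9 and 25.2 CPM. Of 20 lysosome membrane and lumen genes, 19 were tested and 14 called higher. Among them were Lamp1 at 325 and 791 CPM, Ctsd at 213 and 813 CPM and Cd68 at 0.0757 and 319.8 CPM. Cd68 had 5 counts, in 1 of 29 control cells, so it too reached the 5 CPM mean only through RO-3306 cells. The median log2 ratio of the lysosome list was 1.28, against 0.96 for the 13 pump subunits tested. Its summed ratio, 2.23 (2.22 to 2.24), was close to that of the pump subunits, 2.22 (2.21 to 2.24). That sum leans on Cd63, which held 2228.5 of 4678 CPM in control and 3874.8 of 10445 CPM in RO-3306. The log2 ratio of Cd63 was 0.80. Of 10 genes known as outputs of mTORC1 or TFEB, 7 were tested and 2 called higher, Sqstm1 at 410.3 and 943 CPM and Map1lc3b at 229.5 and 515 CPM.

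Across the 34 RO-3306 cells at equal depth, summed pump transcripts had a Spearman rho of 0.47 with the summed lysosome list and of 0.32 with Ragulator. Across the 25 control cells the values were -0.02 and -0.09. These are descriptions over cells of groups that count as 1 sample each, and sparse counts bear on them. Members with the E-box core and members without it were set side by side. Of the 9 tested members with CACGTG in the promoter window, 6 were called higher, with a median log2 ratio of 0.85. Of the 14 without it, 4 were called higher, with a median of 0.41. Of the 6 not in the promoter table, 4 were called higher, with a median of 1.13. Over all genes tested, 11.4% of the 919 with CACGTG, 10.2% of the 6640 without it and 11.6% of the 1815 not in the table were called higher. Their median log2 ratios were -0.20, -0.22 and -0.21. The difference between the members with and without the core was not tested. Of the members with TCACGTGA, Atp6v0d1 and Atp6v0e were called higher and Atp6v1a was not called (its sets differed in sign). Those called higher without CACGTG in the window were Atp6v0c, Atp6v1d, Atp6v1f and Atp6ap2.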

How the data were processed

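RNA of single cells was measured in 96 libraries. The authors deposited expected counts for each gene, obtained with featureCounts version 2.0.3 (per the file headers): the counted feature was the full gene, with introns, a read with several sites was shared among them in fractions, and no strand option was set. STAR is named with no version, per the submitters' processing notes. Fractions were kept for CPM at full depth. They were rounded to whole counts for thinning and all values at equal depth, and for exact intervals of CPM and ratios. Rounded counts also served for TMM (edgeR 4.0.16) and DESeq2 1.42.0 factors in R 4.3.3. Sums, ratios, exact intervals and thinning were computed in Python 3.11.15 (numpy 2.4.6, pandas 2.3.3, scipy 1.17.1) and tested on simulated data. mRNA lengths were medians of coding transcripts matched by symbol. Members and lists were chosen with earlier results of these data known. Every member is accounted for; called members get full values, and other genes are named where called or at 0. Cells left out had under 50000 counts or under 1000 genes.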

Additional observations from a re-analysis of the deposited data

Results flagged for a closer look

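The libraries left out of the comparisons for too few counts or too few genes held Ragulator counts in the RO-3306 group. The 11 left-out RO-3306 libraries had 372.5 Ragulator counts, in 7 libraries, which is 320 CPM (288 to 354, exact interval for counting error only). The 19 left-out control libraries had 3 counts, in 1 library, which is 8.79 CPM (1.81 to 25.7). Pump transcripts were at 1680 CPM in the left-out control and 1390 CPM in the left-out RO-3306 libraries. The 2 sets of left-out libraries held 341166 and 1162603 counts in all, and the cause was not tested.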

How the results depend on the processing

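No paired analysis was possible because no result comes from a test and the numbers in the titles name single cells. Log2 ratios recomputed for the 15 called members, the members' median and the 3 sums kept their sign under every alternative. Members not called did not all do so: with equal weights Atp6v1a went from -0.51 to 0.89, Atp6v0a1 from -0.06 to 0.59 and Tfeb from -0.11 to 0.50, and Rraga went from -0.14 to 1.07 without control cell D7. With TMM and DESeq2 factors the members' median log2 ratio was 0.92 and 0.94, that of summed pump transcripts 1.36 and 1.39, of Ragulator 0.86 and 0.88, and of the Rags 1.30 and 1.32. With nuclear-coded totals pump and Ragulator were at 1.18 and 0.67. With cells weighted equally the median, pump, Ragulator and Rags were at 0.89, 1.23, 0.61 and 0.77, and with thinned cells at 0.82, 1.28, 0.60 and 0.72. Thinned cells gave 12 members called higher, 10 of them shared with the 14, against 11.3% of all genes. Atp6v0d1, Lamtor4, Rragb and Rragc were lost, and Flcn and Fnip1 were gained. The pump was at 1.16 over cells of at least 500000 counts and 3000 genes, and at 0.97 without Atp6v0c and Atp6v1g1, an alternative chosen after seeing the data. The median was 0.88 over members of at least 20 CPM. The number called lower was 0 with equal weights, thinned cells, length correction or the 20 CPM limit, and 9 members were called higher with length correction. Sets and single cells were left out in turn (single cells were added after seeing the data). The median then ran from 0.64 to 0.85, pump from 1.10 to 1.20, Ragulator from 0.44 to 0.87 and Rags from 0.67 to 1.32. Members called higher ran from 13 to 17 and called lower from 0 to 1. With a set left out only the remaining sets had to share a sign, which loosens the rule. Then 13.2% to 15.2% of all genes were called higher, against 10.6% with all sets. The causes were not tested. Depth limits members found in few cells, such as Rragb, Rptor and Tfe3.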
